A study of Mus musculus with 21 samples.

Results

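A group of imprinted genes was followed across haploid and diploid mouse stem cells, fibroblasts and male germ cells. The set held 9 genes known to be read from the paternal chromosome (Mest, Peg10, Sgce, Plagl1, Sfmbt2, Impact, Slc38a4, Nnat and Rasgrf1) and Grb10, which is read from the maternal chromosome in most tissues and from the paternal one in neurons. Members were chosen by gene name: every probe set whose platform annotation gave a single gene symbol, that symbol being in the set, was kept. This gave 21 probe sets of 10 genes, out of 34945 probe sets of 18193 genes with a single symbol, by a rule that uses no measured value.

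Expression had been measured on 21 Affymetrix mouse arrays, 3 for each of 7 groups, all labelled as biological replicates. AH129-5, AH129-N1 and AH129-NC1 are androgenetic haploid embryonic stem (ahES) lines of 129 Sv background, whose single chromosome set comes from sperm. They were compared with CS1-1 and R1, diploid embryonic stem (ES) lines that are likewise 129 Sv, with mouse embryonic fibroblasts (MEF) of CD1 background, and with round sperm, haploid germ cells past meiosis, from 129 Sv mice. ES lines grew in N2B27 with 2i and LIF and MEF in serum-containing DMEM, while round sperm were isolated directly from testis. A sort for the G0/G1 haploid DNA peak was given for ahES cells and for round sperm, but none for diploid ES cells or MEF. Haploidy, paternal origin and sorting therefore cannot be told apart in ahES minus diploid ES. Each ES group is 1 line, so 3 ahES lines stand against 2 diploid lines. The p-values between single lines measure only the spread between arrays, pooled over all 7 groups, and not the spread between lines. In these bulk samples, fewer cells of a type and less RNA per cell cannot be told apart.

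An imprinted gene is transcribed from the copy inherited from the father or from the mother, for most such genes according to DNA methylation laid down at a control region in the germ line of that parent. Sfmbt2 and Slc38a4 are known in mouse as exceptions whose imprint depends on histone methylation inherited from the egg. The embryo protects the DNA methylation marks through the genome-wide loss of methylation after fertilisation, with the zinc finger protein ZFP57 binding the methylated motif TGCCGC at many control regions. Imprinted genes are known for their effects on fetal growth, placenta and nutrient supply, and their marks are known to be unstable in some ES cell cultures. Allele origin was not measured by these arrays, which read the summed RNA of all copies.

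RefSeq promoter windows of GRCm38.p6, 250 bases before to 50 bases after an annotated start, were given for 7 of the 10 genes and are shown here for 4 genes whose ahES and diploid ES arrays did not overlap at the leading probe set. The window with the most CpG is shown for each gene (the first listed where windows tie), and both windows for Grb10. Letters are of the reference strain and not of the 129 Sv or CD1 cells, and capitals mark CpG dinucleotides, the sites of most DNA methylation in mammals.
Plagl1 (chr10:13090582-13090881, plus strand): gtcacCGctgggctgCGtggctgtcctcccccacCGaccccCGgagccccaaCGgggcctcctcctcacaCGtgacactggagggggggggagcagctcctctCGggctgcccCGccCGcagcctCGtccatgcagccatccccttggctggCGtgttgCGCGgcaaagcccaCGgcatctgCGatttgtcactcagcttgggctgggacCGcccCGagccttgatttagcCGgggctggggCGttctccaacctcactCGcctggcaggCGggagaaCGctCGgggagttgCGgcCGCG
Sfmbt2 (chr2:10372186-10372485, plus strand): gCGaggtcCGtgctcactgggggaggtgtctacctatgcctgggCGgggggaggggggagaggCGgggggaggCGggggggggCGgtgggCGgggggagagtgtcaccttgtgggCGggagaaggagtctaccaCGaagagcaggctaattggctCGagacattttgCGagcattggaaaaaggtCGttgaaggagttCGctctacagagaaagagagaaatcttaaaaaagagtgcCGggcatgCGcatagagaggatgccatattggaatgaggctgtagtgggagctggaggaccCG
Slc38a4 (chr15:97055907-97056206, minus strand): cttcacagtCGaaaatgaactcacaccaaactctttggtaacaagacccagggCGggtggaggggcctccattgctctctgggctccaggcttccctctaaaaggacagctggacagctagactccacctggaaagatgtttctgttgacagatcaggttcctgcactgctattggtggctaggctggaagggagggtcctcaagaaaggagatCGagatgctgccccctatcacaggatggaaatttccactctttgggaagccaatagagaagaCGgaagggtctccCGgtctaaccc
Grb10, upstream start (chr11:12037371-12037670, minus strand): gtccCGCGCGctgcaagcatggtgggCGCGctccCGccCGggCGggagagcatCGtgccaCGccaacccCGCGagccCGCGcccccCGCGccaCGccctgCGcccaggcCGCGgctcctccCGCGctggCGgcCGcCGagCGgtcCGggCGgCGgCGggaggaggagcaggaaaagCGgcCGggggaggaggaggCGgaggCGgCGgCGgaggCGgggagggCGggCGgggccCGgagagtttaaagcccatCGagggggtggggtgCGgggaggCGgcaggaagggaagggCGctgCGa
Grb10, downstream start (chr11:12027922-12028221, minus strand): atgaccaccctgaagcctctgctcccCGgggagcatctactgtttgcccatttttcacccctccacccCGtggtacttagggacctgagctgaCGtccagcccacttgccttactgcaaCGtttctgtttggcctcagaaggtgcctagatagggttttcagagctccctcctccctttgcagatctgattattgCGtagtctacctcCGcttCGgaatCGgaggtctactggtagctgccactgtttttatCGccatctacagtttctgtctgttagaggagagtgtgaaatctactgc
The windows differed widely in CpG content. The upstream Grb10 window held 45 CpG, a number reached by 1.9% of 32851 RefSeq promoter windows, and the downstream one held 9. Plagl1 held 26 CpG, Sfmbt2 16 and Slc38a4 5, against a median of 7 over all windows (quartiles 3 and 20). The letters TGCCGC, searched on both strands, occurred in 5 of the 13 member windows (2 overlapping windows of Mest, and those of Plagl1, Nnat and the upstream Grb10 start) and in 11.61% of all windows. None of the Sfmbt2, Slc38a4 and Rasgrf1 windows held these letters, which says only that they are not in these windows.

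Values below are deposited log2 MAS5 signals, on which 1 unit is a doubling, unless a difference is named. Differences are in log2(signal + 9.70), with standard errors (SE) and Benjamini-Hochberg adjusted p from limma over all probe sets tested. A call needed an adjusted p under 0.05 and at least 2-fold. A group mean at or below the mean 40th percentile of its arrays, between 5.07 and 5.28, is named near background. Each gene is represented by its leading probe set, the one with the highest mean over all arrays, unless another is named. The labels of the cells fitted their markers. All 14 pluripotency markers lay above the 40th percentile of every ES array. All 17 fibroblast markers with a probe set did so on every MEF array, and all 14 round spermatid markers on every round sperm array. Passing that level did not by itself separate the groups. All 17 fibroblast markers also passed on every AH129-NC1 and R1 array, and 12 to 17 did on the other ES arrays. Of the pluripotency markers, 5 to 7 passed in MEF and 8 to 9 in round sperm. Their summed signal was 129711 to 159350 units in ES arrays, 4274 to 4679 in MEF and 11394 to 13841 in round sperm. Markers of other testis cells summed to 9819 to 11307 signal units in round sperm, against 1973 to 3595 units in the ES and MEF groups, and their part in the round sperm results was not tested.

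**Figure D1:**
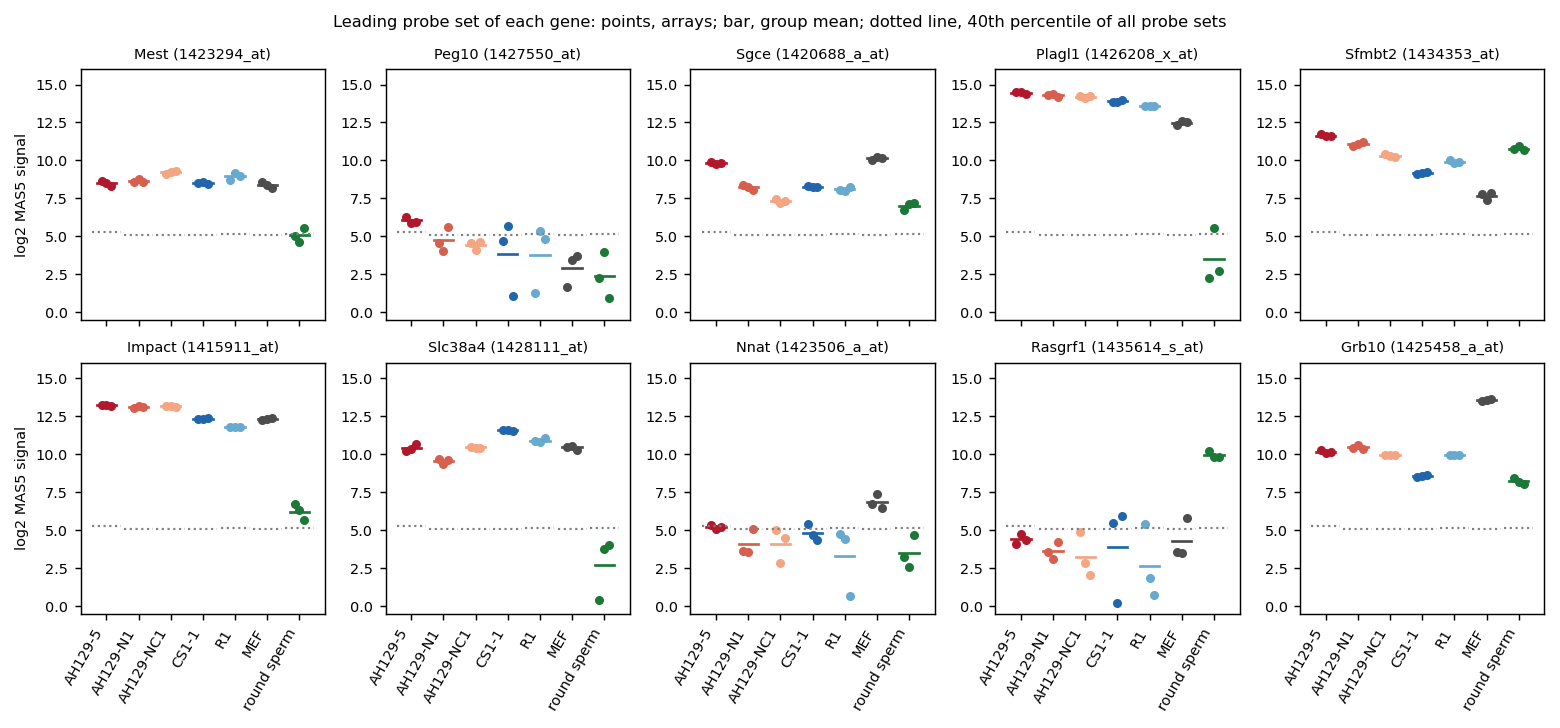
Deposited log2 MAS5 signal (vertical axis) of the leading probe set of each of the 10 genes in the 7 groups; points are the 3 arrays of a group, bars are group means and dotted lines the mean 40th percentile of all probe sets in that group. Impact and Plagl1 lie above every diploid ES array in all ahES arrays, Slc38a4 lies below, Sgce spreads between the ahES lines, Grb10 is highest in MEF, and Rasgrf1 is above background only in round sperm.

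Whether imprinted genes of this set differ between haploid and diploid ES cells was read from ahES minus diploid ES, fitted on 15 ES arrays with the line as a random block. Impact and Sfmbt2 were higher in ahES cells and Slc38a4 was lower, while Mest, Peg10 and Sgce were not called and Nnat and Rasgrf1 lay too low in ES cells to be tested. Of 21 member probe sets, 15 (of 8 genes) passed the filter on low values. Of these, 2 were higher, 2 were lower and 11 were not called. Over all 27470 probe sets tested, 3.91% were called, 2.53% as higher and 1.38% as lower. By leading probe set, 2 of 8 tested members were higher and 1 lower with a median difference of 0.60, against 430 higher and 212 lower of 12891 genes and a median of -0.03. The 9 ahES and 6 diploid ES arrays did not overlap for 6 of the 15 member probe sets, against 11.5% of all probe sets tested.

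**Figure D2:**
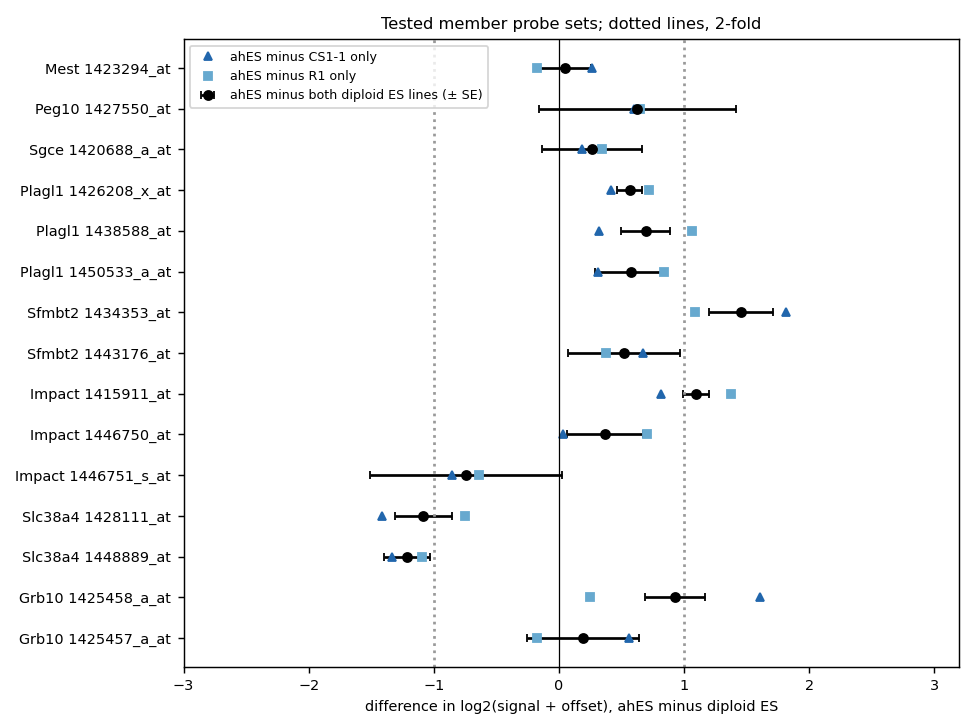
Difference in log2(signal + offset) between ahES and diploid ES cells (horizontal axis) for the 15 tested member probe sets; circles with bars are the fit to both diploid lines ± SE, triangles compare ahES with CS1-1 only and squares with R1 only, and dotted lines mark 2-fold. The 2 Slc38a4 probe sets lie left of 0 against either line, while Grb10 1425458_a_at is at 1.61 against CS1-1 and 0.25 against R1.

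Among the regulators of transcription, Sfmbt2 is a polycomb-group protein required for the trophoblast lineage, in which it is imprinted. Its leading probe set, 1434353_at, read 11.72, 11.61 and 11.60 in AH129-5, 10.93, 11.12 and 11.20 in AH129-N1, and 10.40, 10.32 and 10.20 in AH129-NC1. It read 9.11, 9.20 and 9.23 in CS1-1 and 10.02, 9.86 and 9.87 in R1. All 9 ahES arrays thus lay above all 6 diploid ES arrays, with AH129-NC1 the lowest ahES line and R1 the higher diploid line. The difference was 1.45 ± 0.26 (SE, adjusted p = 0.000804 by limma), a 2.73-fold rise. Against CS1-1 alone it was 1.82, and against R1 alone 1.09 (adjusted p = 0.0480 by limma). With 1 mean per line the adjusted p was 0.145.

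The weaker Sfmbt2 probe set, 1443176_at, read 4.201 to 6.241 around a median of 5.86 in ahES arrays and 4.61 to 5.40 around a median of 5.08 in diploid ES arrays. It lay close to background, its ranges overlapped, and its difference of 0.52 ± 0.45 was not called (adjusted p = 0.563 by limma). Averaging the Sfmbt2 probe sets gave a difference of 0.987 (adjusted p = 0.0159 by limma), under 2-fold and so not called.

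The 3 ahES lines also differed among themselves in Sfmbt2. Its order over the 7 groups was AH129-5, AH129-N1, round sperm, AH129-NC1, R1, CS1-1 and MEF, with every neighbouring pair apart at an adjusted p under 0.05 by limma. Of the ahES pairs, AH129-5 exceeded AH129-NC1 by 1.33 ± 0.11 (adjusted p = 1.75e-08 by limma). MEF, with 7.80, 7.37 and 7.85, were the lowest, and round sperm, with 10.72, 10.92 and 10.70, lay inside the range of the ahES lines.

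Plagl1 encodes a zinc finger transcription factor known to restrain growth and to act on other imprinted genes in mouse. Probe set 1426208_x_at read 14.54, 14.51 and 14.36 in AH129-5, 14.32, 14.37 and 14.21 in AH129-N1, and 14.24, 14.10 and 14.22 in AH129-NC1. It read 13.87, 13.87 and 13.96 in CS1-1 and 13.61, 13.59 and 13.61 in R1. No ahES array overlapped a diploid ES array, but the difference of 0.57 ± 0.10 (adjusted p = 0.000489 by limma) was 1.48-fold and so not called. Its ending, _x_at, marks a probe set that can match other transcripts. The other Plagl1 probe sets differed by 0.69 ± 0.20 (1438588_at, adjusted p = 0.0249) and 0.57 ± 0.29 (1450533_a_at, adjusted p = 0.241), both under 2-fold by the limma fit. Against R1 alone, 1438588_at differed by 1.06 and was called. Its ahES arrays read 9.24 to 9.95 around a median of 9.57 and its diploid ES arrays 8.39 to 9.40 around a median of 8.89, with overlap only in CS1-1. For 1450533_a_at the ahES arrays read 7.43 to 8.56 around a median of 7.76 and the diploid ES arrays 7.001 to 7.823 around a median of 7.11, again with overlap only in CS1-1.

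Impact, an inhibitor of the kinase GCN2, which slows translation when amino acids are short, gave the smallest adjusted p of the set in ahES minus diploid ES. Its leading probe set, 1415911_at, read 13.22, 13.24 and 13.18 in AH129-5, 13.08, 13.16 and 13.13 in AH129-N1, and 13.15, 13.20 and 13.14 in AH129-NC1. It read 12.33, 12.33 and 12.40 in CS1-1 and 11.78, 11.78 and 11.80 in R1. All 3 ahES lines lay above both diploid lines, AH129-NC1 overlapping each of the other two, and the diploid lines differed by 0.56 ± 0.13 (CS1-1 minus R1, adjusted p = 0.00288 by limma, under 2-fold). Impact was 2.14-fold higher in ahES cells, a difference of 1.09 ± 0.11 (adjusted p = 3.64e-07 by limma). Against R1 alone the difference was 1.38, and against CS1-1 alone it was 0.81 (adjusted p = 2.24e-06 by limma), under 2-fold and so not called. It was the only member still called with 1 mean per line.

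The other Impact probe sets were not called. Against R1 alone 1446750_at differed by 0.70, and against CS1-1 alone by 0.03. Probe set 1446750_at differed by 0.37 ± 0.30 (adjusted p = 0.539 by limma), with ahES values of 7.32 to 7.86 around a median of 7.64 and diploid ES values of 6.22 to 7.65 around a median of 7.45. Probe set 1446751_s_at was near background in every ahES line but not in CS1-1 (mean 5.80) or R1 (mean 5.55). It differed by -0.75 ± 0.77 (adjusted p = 0.650 by limma). Averaging the Impact probe sets gave a difference of 0.24 (adjusted p = 0.672 by limma).

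Slc38a4, a transporter of neutral amino acids known for its role in the mouse placenta, was the single member lower in ahES cells. Probe set 1428111_at read 10.20, 10.37 and 10.66 in AH129-5, 9.68, 9.38 and 9.64 in AH129-N1, and 10.49, 10.43 and 10.44 in AH129-NC1. It read 11.57, 11.58 and 11.56 in CS1-1 and 10.87, 10.79 and 11.05 in R1. Every ahES array lay below every diploid ES array, with AH129-N1 the lowest line and CS1-1 the highest. The difference was -1.08 ± 0.23 (adjusted p = 0.00330 by limma). The other probe set, 1448889_at, differed by -1.21 ± 0.18 (adjusted p = 8.88e-05 by limma), again without overlap, at 9.10 to 10.19 in ahES arrays and 10.78 to 11.10 in diploid ES arrays. Both probe sets were called lower in AH129-5, AH129-N1 and AH129-NC1 against CS1-1, and in AH129-N1 against R1. On the deposited log2 values with no offset, 1428111_at kept these folds but lost the calls in AH129-5 minus CS1-1 (adjusted p = 0.188), AH129-NC1 minus CS1-1 (adjusted p = 0.198) and AH129-N1 minus R1 (adjusted p = 0.148), all by limma. Without AH129-NC1 replicate 3, 1448889_at was at -0.96 in AH129-NC1 minus CS1-1, under 2-fold. Without AH129-N1 the differences were -0.80 and -0.96, under 2-fold. Against R1 alone they were -0.75 (adjusted p = 0.102 by limma) and -1.09 (adjusted p = 0.00490 by limma), and with 1 mean per line the adjusted p was 0.150 and 0.0606.

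Grb10 is an adaptor that binds the insulin and IGF1 receptors and restrains growth. Probe set 1425458_a_at read 10.25, 10.11 and 10.13 in AH129-5, 10.44, 10.61 and 10.32 in AH129-N1, and 9.98, 9.98 and 9.96 in AH129-NC1. It read 8.49, 8.57 and 8.63 in CS1-1 and 9.95, 9.95 and 9.94 in R1. R1 lay just below the ahES lines, with AH129-NC1 minus R1 at 0.03 (adjusted p = 0.892 by limma), and CS1-1 stood apart below all of them. The difference between ahES and diploid ES cells was 0.93 ± 0.24 (adjusted p = 0.0136 by limma), under 2-fold, and was 1.61 against CS1-1 alone and 0.25 (adjusted p = 0.453 by limma) against R1 alone. CS1-1 minus R1 was -1.36 ± 0.09 (adjusted p = 6.86e-10 by limma), the only call among 19 member probe sets tested in that pair, in which 7.55% of all probe sets were called.

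The median and the summed signal of the fibroblast markers, like Grb10, were lowest in CS1-1, and the order of the other 4 lines depended on the summary taken. As a percent of MEF signal, Grb10 stood at 9.51 in AH129-5, 11.7 in AH129-N1, 8.33 in AH129-NC1, 3.14 in CS1-1 and 8.18 in R1. The median of the 17 fibroblast markers stood at 13.5% in AH129-5, 10.7% in AH129-N1, 11.0% in AH129-NC1, 1.71% in CS1-1 and 14.3% in R1. Among the other lines Grb10 was highest in AH129-N1 and lowest in R1. The marker median was lowest in AH129-N1, close to AH129-NC1, while the summed signal was lowest in AH129-NC1. In CS1-1, 13 of the 17 markers were called lower than in R1. The summed signal of these markers was 50460 to 56072 units in AH129-5, 43115 to 48073 in AH129-N1, 41645 to 42763 in AH129-NC1, 26629 to 27885 in CS1-1 and 54332 to 55706 in R1, against 239781 to 242097 in MEF. None of them was at 0 on all arrays of a group. In ahES minus diploid ES, 2 of the 17 were called higher and 0 lower, with a median difference of 1.11. The part of the fibroblast signal in the Grb10 differences was not tested.

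Taken line by line against CS1-1, 5 member probe sets were called in AH129-5 (11.6% of all probe sets), 4 in AH129-N1 (10.3%) and 4 in AH129-NC1 (12%). Sfmbt2 and Grb10 were higher and both Slc38a4 probe sets lower in each of these 3 pairs, which share the CS1-1 arrays, and AH129-5 added Sgce. Against R1, 5 were called in AH129-5 (8.71%), 4 in AH129-N1 (7.41%) and 1 in AH129-NC1 (6.24%). Impact was higher in each of these 3 pairs, which share the R1 arrays, by 1.42, 1.33 and 1.37. Sfmbt2 was higher in AH129-5 (1.71) and AH129-N1 (1.16), Slc38a4 lower in AH129-N1 (-1.32 and -1.60), and Sgce and 2 Plagl1 probe sets higher in AH129-5. In AH129-N1 minus AH129-NC1, limma called 0 of 19 member probe sets (2% of all probe sets). Members still differed under 2-fold, among them Sgce by 0.88 and Mest by -0.56, at adjusted p of 1.16e-04 and 0.0307 by limma. Arrays of AH129-N1 and AH129-NC1 also did not overlap for Sfmbt2 (means 11.09 and 10.31), Grb10 (10.455 and 9.97) and Slc38a4 (9.57 and 10.45).

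**Figure D3:**
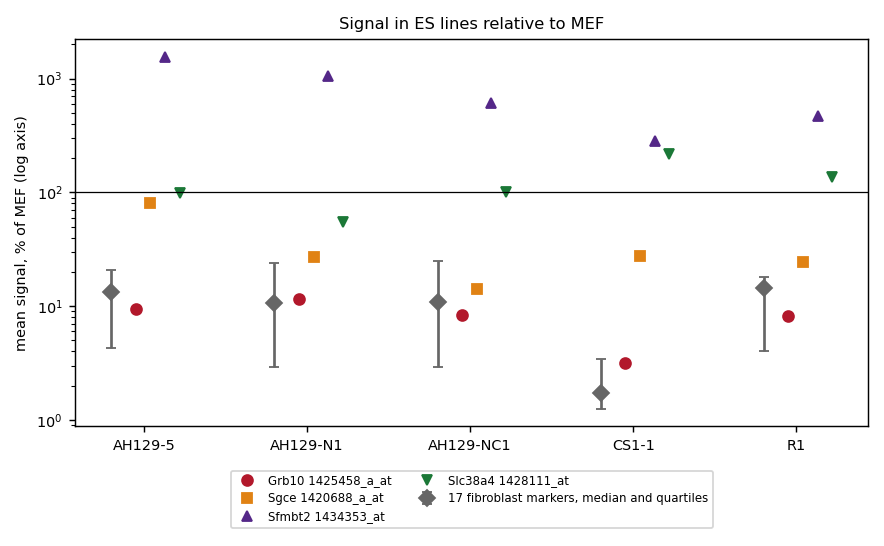
Mean signal of 4 member probe sets in the 5 ES lines as a percent of their mean in MEF (log axis), with the median and quartiles of 17 fibroblast markers; the horizontal line marks 100%. Grb10 and the marker median are both lowest in CS1-1, at 3.14% and 1.71%, while Sfmbt2 lies above 100% in all 5 lines and Sgce is at 80.1% in AH129-5 against 14.2% to 27.7% in the other lines.

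Of the chromosome 6 genes, Sgce and Peg10 are neighbours transcribed in opposite directions, Sgce encoding epsilon-sarcoglycan, a membrane glycoprotein, and Peg10 a retrotransposon-derived protein needed for the placenta. Sgce set the ahES lines apart from each other rather than from diploid cells. Probe set 1420688_a_at read 9.88, 9.76 and 9.81 in AH129-5, 8.36, 8.27 and 8.08 in AH129-N1, and 7.47, 7.19 and 7.30 in AH129-NC1. It read 8.31, 8.25 and 8.28 in CS1-1 and 8.05, 8.02 and 8.26 in R1. AH129-5 lay above every diploid ES array, AH129-NC1 below every one, and AH129-N1 among them. AH129-5 exceeded AH129-N1 by 1.54 ± 0.13 (adjusted p = 3.61e-08 by limma) and AH129-NC1 by 2.43 ± 0.13 (adjusted p = 1.96e-11 by limma). In these pairs 3.84% and 3.63% of all probe sets were called, and of 19 member probe sets tested the called ones were that of Sgce in the first pair, and those of Sgce and Sfmbt2 in the second. AH129-5 also exceeded CS1-1 by 1.504 and R1 by 1.67, both called, while AH129-NC1 lay 0.92 below CS1-1 and 0.75 below R1, both under 2-fold. The ahES mean differed from diploid ES by 0.26 ± 0.40 (adjusted p = 0.788 by limma), and by -0.40 without AH129-5.

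Peg10 read 6.29, 5.90 and 5.95 in AH129-5, the only group whose mean was not near background. The other ahES arrays read 4.04 to 5.62, and diploid ES arrays 1.11 to 5.67. AH129-5 differed from AH129-N1 by 1.04 ± 0.54 (adjusted p = 0.222 by limma) and from CS1-1 by 1.37 ± 0.54 (adjusted p = 0.0598 by limma), so its excess over other ES lines was not called. Sgce and Peg10 both had their highest ES mean in AH129-5. The second Sgce probe set, 1443518_at, was near background in all 7 groups and was not tested.

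Mest, on another stretch of chromosome 6 and encoding a hydrolase-like protein named for its expression in mesoderm, read 8.33 to 9.30 in ahES arrays around a median of 8.63 and 8.43 to 9.19 in diploid ES arrays around a median of 8.67. The ranges overlapped, and the difference was 0.04 ± 0.21 (adjusted p = 0.945 by limma). AH129-NC1 held the highest mean, 9.23, and its excess over AH129-5, 0.71 in size (AH129-5 minus AH129-NC1 was -0.71 ± 0.17, adjusted p = 0.00542 by limma), was under 2-fold. From highest to lowest the order was AH129-NC1, R1, AH129-N1, CS1-1, AH129-5, MEF and round sperm, and no neighbouring pair was called except MEF over round sperm. Nnat, a small membrane proteolipid of the endoplasmic reticulum, was near background in all 5 ES lines, at 2.87 to 5.33 in ahES arrays and 0.69 to 5.39 in diploid ES arrays. Rasgrf1, an exchange factor that activates Ras, was also near background there, at 2.04 to 4.85 in ahES arrays and 0.23 to 5.95 in diploid ES arrays.

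Fibroblasts provided the somatic reference. The fits against MEF and round sperm used no line block, so their SEs and p-values leave out the spread between ahES lines. In ahES minus MEF, 16 of 21 member probe sets were tested, 5 were higher in ahES cells, 6 were lower and 5 were not called, with a median difference of 0.17. Of all 28455 probe sets tested, 39.6% were called, 19.4% higher and 20.3% lower, with a median of 0.08. The higher calls were of Sfmbt2, Plagl1 (3 probe sets) and Peg10, and the lower ones of Grb10 (3 probe sets), Sgce, Nnat and Slc38a4 (1 of its 2 probe sets).

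Plagl1 and Sfmbt2 were higher in ahES cells. Sfmbt2 averaged 11.01 ± 0.59 (SD over 9 arrays of 3 lines) in ahES cells and 7.67 ± 0.26 (SD, n = 3) in MEF, a difference of 3.28 ± 0.09 (adjusted p = 3.70e-18 by limma). Plagl1 1426208_x_at averaged 14.32 ± 0.14 (SD over 9 arrays of 3 lines) in ahES cells and 12.49 ± 0.16 (SD, n = 3) in MEF, a difference of 1.83 ± 0.26 (adjusted p = 4.72e-06 by limma). The ahES SDs mix differences between lines with the spread between arrays. Peg10 was called higher as well, at 1.30 ± 0.45 (adjusted p = 0.0133 by limma), but MEF were near background and the bound is at least 1.00-fold. Without MEF replicate 1 its adjusted p was 0.0859.

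Grb10, Sgce and Nnat were lower in ahES cells than in MEF. Grb10 1425458_a_at read 13.48, 13.58 and 13.61 in MEF, above every other group, and ahES cells lay 3.35 ± 0.08 below (adjusted p = 2.25e-19 by limma), a 10.2-fold difference. Sgce was lower by 1.64 ± 0.11 (ahES minus MEF -1.64, adjusted p = 8.36e-12 by limma), although AH129-5 reached 80.1% of the MEF signal and AH129-5 minus MEF was -0.32 ± 0.13 (adjusted p = 0.0430 by limma), under 2-fold, in a pair with 35% of probe sets called. Nnat read 6.75, 7.39 and 6.47 in MEF, the only group not near background, at least 3.28-fold above ahES cells (adjusted p = 0.000100 by limma). Slc38a4 was called lower by 1448889_at (-1.04 ± 0.16, adjusted p = 5.26e-06 by limma) and not by 1428111_at (-0.30 ± 0.17, adjusted p = 0.123 by limma). Impact differed by 0.85 ± 0.11 (adjusted p = 4.47e-07 by limma) and Mest by 0.40 ± 0.13 (adjusted p = 0.0119 by limma), both under 2-fold. MEF were also of another strain background, CD1, which cannot be told apart from cell type here.

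Round sperm stood at the other end for most members. In ahES minus round sperm, 16 member probe sets were tested, 11 were higher in ahES cells, 3 were lower and 2 were not called, with a median of 2.65. Of all 30794 probe sets tested, 71% were called, 42.4% higher and 28.6% lower, with a median of 0.53. Plagl1, Slc38a4 and Mest were near background in round sperm. Plagl1 1426208_x_at read 2.28, 5.56 and 2.76 in round sperm, at least 509.5-fold below ahES cells. Slc38a4 1428111_at read 0.42, 3.75 and 4.05 there, at least 31.8-fold below, and Mest read 5.05, 4.66 and 5.56, at least 11.4-fold below. Impact read 6.71, 6.33 and 5.65 in round sperm, above background, and ahES cells were 6.76 ± 0.11 higher (adjusted p = 2.72e-23 by limma). Grb10 1425458_a_at, at 8.46, 8.17 and 8.05 in round sperm, was higher in ahES cells by 1.93 ± 0.08 (adjusted p = 3.53e-16 by limma), whereas Grb10 1425457_a_at was lower by 1.34 (difference -1.34 ± 0.25, adjusted p = 4.46e-05 by limma). Sgce, at 6.72, 7.12 and 7.23 in round sperm, was higher in ahES cells by 1.38 ± 0.11 (adjusted p = 5.22e-11 by limma), but its range overlapped that of AH129-NC1. With quantile normalization the Sgce difference was 0.86, under 2-fold. Peg10 was called higher in ahES cells at 1.46 ± 0.44 (adjusted p = 0.00417 by limma). However, round sperm, AH129-N1 and AH129-NC1 were near background for Peg10 and the bound showed no increase, so no fold is given.

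Rasgrf1 had its highest group mean in round sperm. Rasgrf1 1435614_s_at read 10.24, 9.80 and 9.84 in round sperm and was near background in the other 6 groups, where single arrays ran from 0.23 to 5.95. It was lower in ahES cells by at least 27.9-fold (difference -5.37 ± 0.52, adjusted p = 2.68e-09 by limma). A second probe set, 1422600_at, read 9.004, 8.765 and 8.284 in round sperm and was lower in ahES cells by at least 11.5-fold. The third, 1424734_at, was near background in all 7 groups, at 3.68, 3.63 and 5.30 in round sperm, and was not tested. Sfmbt2 differed from round sperm by 0.23 ± 0.09 (adjusted p = 0.0207 by limma), under 2-fold, but was called lower in CS1-1 than in round sperm (-1.59) and in MEF than in round sperm (-3.05), in pairs with 67.4% and 68.3% of probe sets called.

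Probe sets of a gene were compared directly by subtracting, on each array, the leading probe set from each other one. In ahES minus diploid ES none of the 7 member probe sets tested was called by limma, and 0.568% of 10555 probe sets were called. The values were -0.73 ± 0.21 for Impact 1446750_at (adjusted p = 0.124), -1.84 ± 0.53 for Impact 1446751_s_at (adjusted p = 0.127), -0.93 ± 0.29 for Sfmbt2 1443176_at (adjusted p = 0.161) and -0.73 ± 0.29 for Grb10 1425457_a_at (adjusted p = 0.297), all by limma. Impact 1446751_s_at, Sfmbt2 1443176_at and Grb10 1425457_a_at were near background in some of the ES lines. For Plagl1 and Slc38a4 the differences were 0.13, 0.01 and -0.13, and the Slc38a4 probe sets had a Pearson correlation of 0.96 over 15 ES arrays, which share lines.

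Against MEF, 4 of 7 were called (15.6% of 11016 probe sets), with Grb10 1425457_a_at at 2.19 ± 0.26 (adjusted p = 7.47e-06 by limma). In ahES arrays this probe set read 4.63 to 6.06, close to background, so it had little room to follow a fall of the leading probe set. That Grb10 probe set read 6.61, 6.69 and 6.88 in MEF and 6.20, 7.23 and 7.32 in round sperm, where it overlapped MEF, whereas the leading probe set differed between these groups by 5.28 (MEF minus round sperm). The remaining Grb10 probe set, 1430164_a_at, read 8.29, 8.07 and 7.99 in MEF and stayed at or below 5.91 on every other array. Plagl1 1438588_at was called at 1.31 ± 0.22 relative to its leading probe set (adjusted p = 0.000194 by limma). Plagl1 1450533_a_at was called higher and Sfmbt2 1443176_at lower, but both were near background on all 3 MEF arrays, so no size is given. With the offset at the 40th percentile neither Plagl1 probe set was called. Against round sperm, 4 of 7 were lower and 0 higher (54.3% of 11385 probe sets called), with the weaker probe set near background in round sperm for Plagl1 and Impact, so those have no size either.

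**Figure D4:**
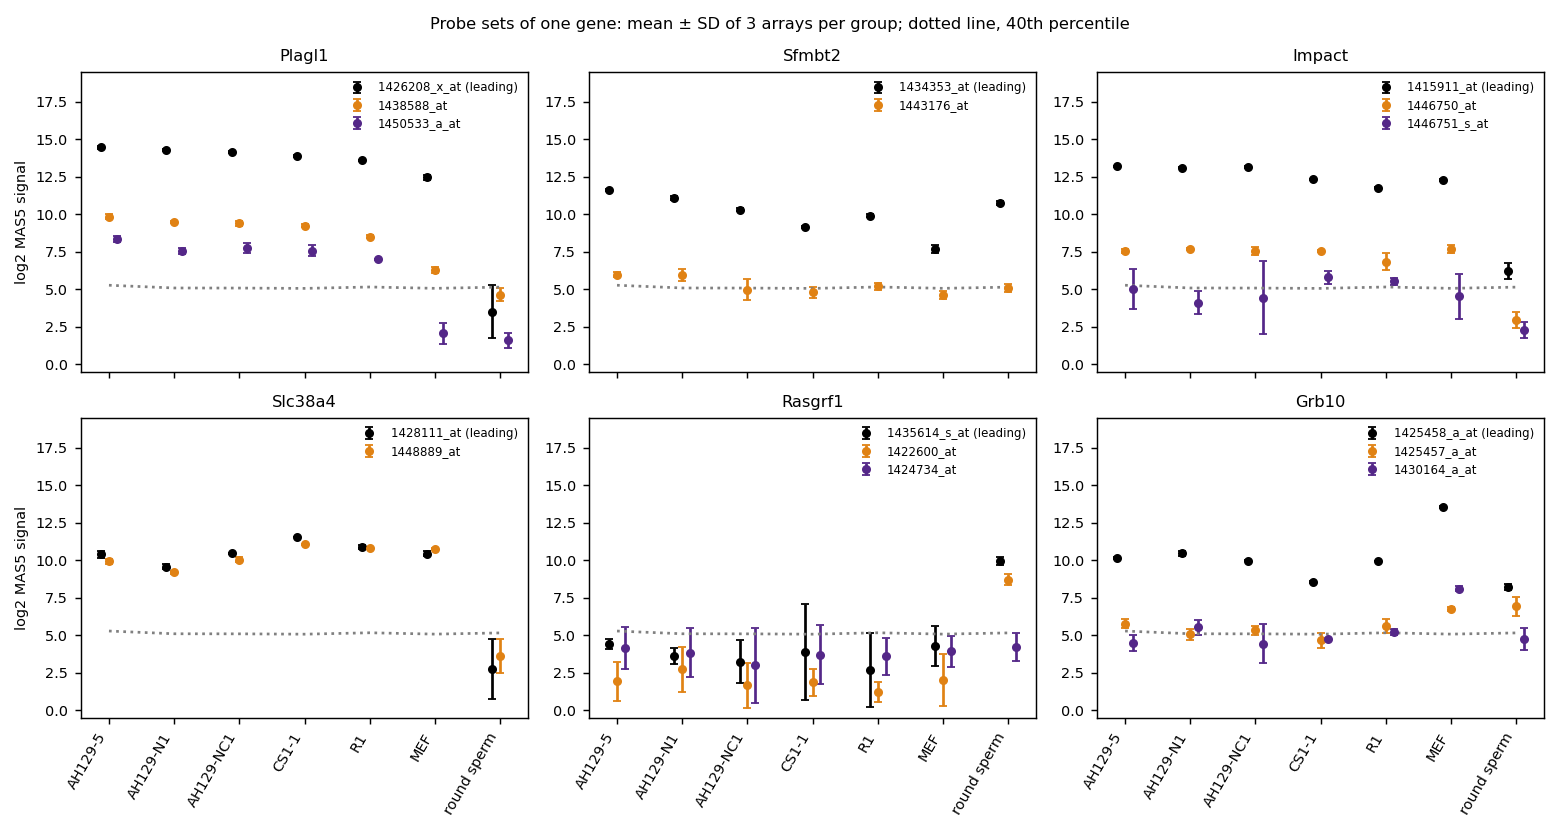
Mean ± SD of 3 arrays per group (deposited log2 MAS5 signal) for the probe sets of Plagl1, Sfmbt2, Impact, Slc38a4, Rasgrf1 and Grb10; dotted lines mark the 40th percentile. The 2 Slc38a4 probe sets run together, Impact 1415911_at steps down in the diploid ES lines while 1446750_at does not do so in CS1-1, and 1 Rasgrf1 probe set stays near background in round sperm.

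Other imprinted genes were read from lists chosen with earlier results known. In ahES minus diploid ES, 13 of 16 other paternally expressed genes with a probe set were tested, and 2 were higher and 0 lower. Of their differences 13 of 13 were positive, with a median of 0.49. Over all genes, 6011 of 12891 differences were positive (median -0.03), with 430 called higher and 212 lower. Of the fibroblast markers 14 of 17 differences were positive, with a median of 1.11. The part of the fibroblast signal in these differences was not tested. The called genes were Ndn, a suppressor of cell growth (1.90 ± 0.27, adjusted p = 8.49e-05 by limma), and Peg12, a neighbour of Ndn (1.76 ± 0.55, adjusted p = 0.0401 by limma). Against MEF, Ndn was 6.11-fold lower in ahES cells (-2.61 ± 0.09), and Peg12 was not called. Of 26 other maternally expressed genes tested, 2 were higher and 2 lower, with a median of -0.31. The higher were Ano1, a chloride channel (1.84 ± 0.51), and Dcn, a matrix proteoglycan that is also a fibroblast marker (2.08 ± 0.60), and the lower were Phlda2, which limits placental growth (-1.90 ± 0.45), and Ppp1r9a, a neuronal actin-binding protein (-1.07 ± 0.34, adjusted p = 0.0457 by limma). The diploid lines themselves differed in 4 of these 6 genes. CS1-1 minus R1 was called at -1.64 ± 0.11 for Ndn, -3.20 ± 0.35 for Dcn, -2.21 ± 0.43 for Phlda2 and 1.27 ± 0.20 for Ppp1r9a, and was not called for Peg12 (0.45 ± 0.40) or Ano1 (0.37 ± 0.32).

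Genes flanking the members were also read in ahES minus diploid ES. Of 18 flanking genes tested, 1 was lower, Ppp1r9a, which lies near Sgce and Peg10, and 17 were not called, with a median of -0.26. Over all 12891 genes, 430 were called higher and 212 lower, with a median of -0.03. Slc38a2, another amino acid transporter gene beside Slc38a4, differed by -0.34 ± 0.13 (adjusted p = 0.102 by limma). Copg2, beside Mest, differed by -0.35 ± 0.15 (adjusted p = 0.147 by limma). Of 11 genes of imprint protection and DNA methylation, 2 were higher, Dnmt3b (1.26 ± 0.13, adjusted p = 9.60e-07 by limma) and Dnmt3a (1.22 ± 0.22, adjusted p = 0.000816 by limma), both DNA methyltransferases that set new methylation, and 9 were not called, with a median of -0.10. Among those not called, Zfp57 (-0.62 ± 0.20, adjusted p = 0.0427 by limma) and Dnmt1 (-0.41 ± 0.12, adjusted p = 0.0241 by limma) were lower in ahES cells, both under 2-fold.

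Genes with the most similar pattern were ranked by Pearson correlation between leading probe sets. Over 15 ES arrays and 12891 genes, which share the 5 lines, the nearest to Impact were Hprt (0.99) and Rhox5 (0.99), both on the X chromosome, and Folr1 (0.99). The nearest to Sfmbt2 were Tubb6 (0.98), Tubb2a (0.98) and Ugp2 (0.97), and the nearest to Sgce were Fabp5 (0.96), Yap1 (0.93) and Mtfr2 (0.92). The nearest to Slc38a4 were Akap9 (0.97), Plet1 (0.97) and Hdac1 (0.96), and the nearest to Grb10 were C130073F10Rik (0.99), Rpl39l (0.97) and Serpinb1a (0.97). Over all 21 arrays and 15379 genes, Grb10 was nearest to Ghr (0.98), Serpinf1 (0.98) and Cap1 (0.98), and Rasgrf1 to Gm31875 (0.95), Pom121l12 (0.95) and 4933417A18Rik (0.95).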

How the data were processed

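The deposited values were log2 MAS5 signals, 1 per probe set and array (45101 probe sets, 21 arrays). The name MAS5, with no version, is from the submitters' processing notes. The log base was taken from the values: raised from base 2, the 2% trimmed mean is 500 on every array. A single gene symbol was available for 34945 probe sets, several for 932 and none for 9160, besides 64 controls. Symbols came from GEO's platform annotation, and promoter sequences and chromosomes from RefSeq (GRCm38.p6).

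Values were returned to signals, an offset of 9.70 units was added (each array's 20th percentile, median taken), and log2 was taken. Testing required values above an array's 40th percentile on all 3 arrays of some compared group. The linear models were fitted in R 4.3.3 with limma 3.58.1 and statmod 1.5.0, using trend and robust moderation and Benjamini-Hochberg adjustment over all probe sets tested. In ahES minus diploid ES, the line was a random block over 15 arrays (consensus correlation 0.593, and 0.292 for probe sets of a gene). Other comparisons, and all 21 pairs of groups, used a mean per group over 21 arrays, with no line block. All tests were 2-sided. Where a group was near background, the fold is a bound, with the 40th percentile in place of lower values. The workflow was tested on simulated data. The number of arrays limits precision. Members, lists and the rule for naming genes were chosen with earlier results of these data known: all 21 member probe sets, the 3 most correlated genes, and up to 5 called genes of a list. Slc38a2, Copg2, Zfp57 and Dnmt1 were named after their values were seen. Alternatives covered the offset, filter, normalization, line block, probe set unit, each line, each array and the replicate number.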

Additional observations from a re-analysis of the deposited data

Results flagged for a closer look

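Sgce differed between ahES lines in opposite directions from the diploid lines. AH129-5 minus AH129-NC1 was 2.43 on the log2(signal + 9.70) scale (adjusted p = 1.96e-11 by limma), with all 3 AH129-5 arrays above and all 3 AH129-NC1 arrays below every diploid ES array. The neighbouring gene Peg10 had its highest mean in AH129-5, as Sgce did among ES lines, but its difference from AH129-NC1, 1.26 ± 0.54, was not called (adjusted p = 0.134 by limma).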

How the results depend on the processing

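With each array left out in turn, ahES minus diploid ES had 2 member probe sets called higher and 2 lower each time, with 1030 to 1095 of all probe sets called (1073 with all arrays). Against MEF the member probe sets called were 4 to 5 higher and 6 lower, against round sperm 11 to 12 higher and 3 lower, and over all pairs 155 to 164 (159 with all arrays). Within genes, all calls in ahES minus diploid ES were 39 to 59 (60 with all arrays), and member calls lower were 1 to 2 against MEF and 4 to 5 against round sperm.

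Replicate numbers did not pair the arrays: deviations of arrays with the same number had a mean correlation of -0.004, and 0 of 63 pairs exceeded 0.1. With the replicate number as a block, 1029 probe sets were called in ahES minus diploid ES, with 2 member probe sets higher and 2 lower, and the only member call lost over all comparisons was Peg10 in AH129-N1 minus round sperm (1.19).

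In ahES minus diploid ES, all calls numbered 515 with 1 mean per line (1 member probe set higher, 0 lower), 1763 with no line block, 561 with the leading probe set of each gene, 488 with the mean over probe sets and 2062 without R1. Member probe sets called lower were 0 without AH129-N1 and 1 without CS1-1. With leading probe sets, 5568 were called against MEF and 10774 against round sperm. Within genes, calls in ahES minus diploid ES were 109 with no filter, 35 with the filter at the 60th percentile, 3 with 1 mean per line, 163 with no block (1 member probe set lower), 39 without AH129-NC1, 22 without CS1-1 and 255 without R1, and 2 member probe sets were lower with the offset at the 40th percentile. Within genes against MEF, calls were 3036 with no filter and 851 with the stricter one (0 member probe sets lower), against 1715. Against round sperm they were 4093 with the stricter filter, against 6183, and 1 member probe set was higher and 7 lower with no filter. The cause was not tested, except that fewer features were tested with leading probe sets and the stricter filter.

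Signs turned only for differences that were not called. They were Sgce (-0.40 without AH129-5), Mest (-0.17 without AH129-NC1, -0.18 without CS1-1 and -0.00089 to 0.11 with single arrays left out), Grb10 1425457_a_at (-0.18 without CS1-1), and Impact 1446750_at against MEF (0.016 with quantile normalization, -0.14 to 0.069 with single arrays left out). Within genes they were Plagl1 1450533_a_at (-0.053 with the offset at the 40th percentile, -0.12 without _x_at and _s_at probe sets, -0.15 without AH129-5, -0.10 without R1, and -0.081 to 0.078 with single arrays left out), Plagl1 1438588_at (-0.093 without R1), Slc38a4 1448889_at (0.080 without R1, and -1.24 to 0.037 against round sperm with single arrays left out) and Rasgrf1 1422600_at (-0.38 against round sperm with no offset). Of all alternatives for members in the 3 comparisons with ahES cells, 1341 kept direction and call, 14 lost the call, 4 gained it and 7 turned sign. Those kept include differences not called in either fit, and many of the alternatives left out a single array. Over pairs of groups, 4359 kept both and 69 lost the call. Signal near background limits Peg10, Nnat and the weaker Rasgrf1, Sgce, Grb10, Impact, Plagl1 and Sfmbt2 probe sets, whose order there has no meaning.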
